A study of Solanum lycopersicum with 12 samples.

Results

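WRKY proteins are plant transcription factors named for a conserved stretch of their DNA-binding domain, which sits beside a zinc finger and contacts W-box elements in the promoters of target genes. The family is large in flowering plants. Its members act as activators or as repressors in defence, salicylic acid responses, senescence and abiotic stress, and many WRKY genes carry W-boxes in their own promoters and are induced or repressed by other WRKY proteins.

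The genes described here are 35 loci listed as tomato WRKY transcription factors, among 34688 loci in the deposited table. A row of the table was taken where its identifier, without the version suffix, equalled a listed locus. Of the 35, 32 had a row, and the other 3 (Solyc03g113120, Solyc08g062490 and Solyc08g067340) were not analysed here. The deposited table does not pair identifiers with gene names, so membership of the family rests on the list, could not be checked against an annotation, and no member is given a name or a role of its own. Whether the list holds the whole family was not checked, so shares below are those of the listed loci. The list was chosen with earlier results of these data known. The listed loci lie on 10 chromosomes by the number in their identifiers, with 8 on chromosome 2 and 6 on chromosome 8. A mean of at least 10 normalized counts was reached by 28 members in shoots and 29 in roots. Of these, 26 reached it in both tissues, 2 in shoots only and 3 in roots only, so 31 were tested in some comparison. The remaining locus, Solyc05g012500.3, averaged 8.87 ± 0.875 normalized counts in PA shoots, 9.51 ± 2.94 in mock shoots, 3.19 ± 2.64 in PA roots and 5.74 ± 2.08 in mock roots (SD, n = 3 each).

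Piperonylic acid (PA) blocks cinnamate 4-hydroxylase, which acts early in the route from phenylalanine to lignin precursors and flavonoids. Seedlings of the tomato cultivar Moneymaker were sprayed on the leaves with 300 µM PA in 0.1% Tween 20, or with a matching mock solution, on days 7 and 14 after transplantation, and were harvested on day 15. All seedlings had been transplanted 4 days after germination and were grown at 24 °C with 16 h of light. The 4 groups were PA shoot, mock shoot, PA root and mock root, with 3 libraries each. Every library came from a pool of 4 plants. Transcripts were counted by 3′-end sequencing, at 4214169 to 7386030 reads per library.

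Values are normalized counts, that is reads of a locus divided by a size factor for its library. All fold changes were taken from log2(value + 1), which makes the change of low loci look smaller, and each test ran over all loci with a mean of at least 10 in the libraries compared, with limma and Benjamini-Hochberg adjustment at 0.05. Beyond the pooling of plants, nothing in the labels tells how replicates were separated, so a p-value reflects variation among these libraries, which may be technical. In whole shoots and whole roots, fewer cells of a type and less RNA per cell cannot be told apart. Mock shoot replicate 1 stood apart from the other 5 shoot libraries on the first principal component over all loci, at 51.1 against -22.4 to 3.61, on a component with 42.2% of the variance. On the first component of the root libraries PA root replicate 3 was at -3.88, between the other PA roots, at -18.8 and -30.7, and the mock roots, at 9.44 to 24.98.

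The first comparison asked which WRKY transcripts differed in shoots after the leaves had been sprayed with PA. Of the 28 members tested, 6 rose and 1 fell, shares of 21.4% and 3.57%, where 0.924% of all 14505 tested loci rose and 0.655% fell. The remaining 21 did not pass. The groups did not overlap at 9 members that were higher in PA shoots and 7 that were lower, against 8.15% and 11.6% of all tested loci. The median log2 fold change over the 28 was 0.15, against -0.02 over all tested loci, and the median of its absolute size was 0.36 against 0.17. Together the 32 members took 0.385, 0.416 and 0.417% of reads in PA shoots, against 0.337, 0.349 and 0.343% in mock shoots, so the summed share, to which members with many reads contribute most, was higher in every PA shoot than in any mock shoot.

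Solyc08g067360.3 showed the largest difference of any member in shoots. It had 314, 420 and 329 normalized counts in PA shoots, against 25.2, 66.3 and 71.8 in mock shoots. All 3 PA libraries lay far above all 3 mock libraries, of which replicate 1 was the lowest. The log2 fold change was 2.80 ± 0.30 (SE, limma adjusted p = 0.000625), or 6.98-fold. In roots this locus was near the detection limit in every library, with 5.97 ± 3.59 normalized counts in PA roots and 6.32 ± 2.46 in mock roots (SD, n = 3 each), and it was not tested there.

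Solyc04g051690.4 was the other member detected almost only in shoots. Its values were 144, 167 and 170 in PA shoots, against 56.1, 103 and 67.2 in mock shoots. The groups were apart, although mock shoot replicate 2 came closer to the PA libraries than the other mock libraries did. The log2 fold change was 1.12 ± 0.20 (SE, limma adjusted p = 0.0158). Root values were 3.90 ± 1.18 in PA roots and 4.88 ± 1.25 in mock roots.

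Solyc09g015770.3 and Solyc03g095770.3 rose as well. Solyc09g015770.3 had 6470, 7178 and 6254 normalized counts in PA shoots, against 3673, 3287 and 2927 in mock shoots. Every PA library lay far above every mock library. The log2 fold change was 1.01 ± 0.12 (SE, limma adjusted p = 0.00082). Solyc03g095770.3 had 3276, 3695 and 3508 in PA shoots, against 2177, 2074 and 2085 in mock shoots. Its mock libraries were close together and all well below the PA libraries, with a log2 fold change of 0.72 ± 0.10 (SE, limma adjusted p = 0.00281).

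The 2 other members that rose did so by 1.6-fold and 1.56-fold. Solyc04g072070.4 had 303, 277 and 331 normalized counts in PA shoots, against 182, 197 and 187 in mock shoots, a log2 fold change of 0.68 ± 0.12 (SE, limma adjusted p = 0.0124). Solyc02g032950.3 had 230, 198 and 206 in PA shoots, against 142, 135 and 128 in mock shoots, a log2 fold change of 0.64 ± 0.13 (SE, limma adjusted p = 0.0266). Neither pair of groups overlapped. In mock roots the 6 members that rose were at levels below those in mock shoots, by log2 differences of -3.68 to -1.68, in a comparison that shares the mock shoot libraries.

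Solyc10g009550.3 was the member that fell. It had 238, 238 and 313 normalized counts in PA shoots, against 462, 436 and 404 in mock shoots. PA shoot replicate 3 was nearest to mock but still below all mock libraries. The log2 fold change was -0.73 ± 0.13 (SE, limma adjusted p = 0.0132).

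**Figure D1:**
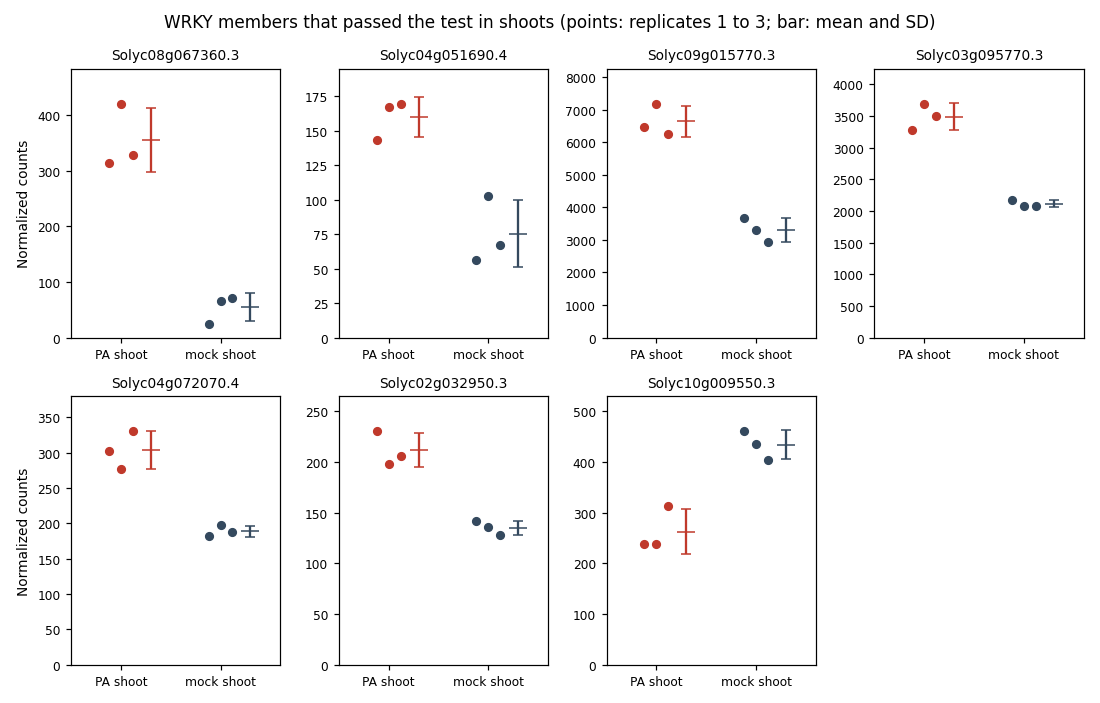
Normalized counts of the 7 WRKY members that passed the test in shoots. Each panel is a locus, points are replicates 1 to 3 of PA shoots and mock shoots, and the bar gives the mean and SD; the groups do not overlap in any panel, PA shoots are higher in 6 panels and lower for Solyc10g009550.3, and Solyc08g067360.3 averaged 354 in PA shoots and 54.5 in mock shoots.

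Several other members were lower in PA shoots without passing. Solyc03g116890.3 had 803, 762 and 1046 normalized counts in PA shoots, against 1114, 1318 and 1559 in mock shoots, with a log2 fold change of -0.61 (limma adjusted p = 0.0539). Solyc08g008280.3 had 313, 302 and 359 in PA shoots, against 405, 443 and 503 in mock shoots, with -0.47 (limma adjusted p = 0.0778). For Solyc02g088340.4 the values were 275, 249 and 288 in PA shoots, against 388, 357 and 367 in mock shoots, with -0.45 (limma adjusted p = 0.0647). In all 3 the groups were apart but the adjusted p missed the threshold. The same held for Solyc06g068460.3, Solyc01g079260.5 and Solyc06g066370.5, with log2 fold changes of -0.38, -0.35 and -0.33.

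Solyc05g015850.5 and Solyc02g071130.5 had log2 fold changes of 0.96 and 0.80, with standard errors of 0.39 for each (limma adjusted p = 0.286 and 0.378). Both had few reads. Solyc05g015850.5 had 23.3, 39.2 and 28.1 normalized counts in PA shoots, against 8.01, 24.9 and 15.6 in mock shoots, and Solyc02g071130.5 had 19.6, 25.4 and 27.2 in PA shoots, against 8.01, 23.0 and 12.5 in mock shoots. The groups overlapped in both, and mock shoot replicate 1 was the lowest library. At the other end, Solyc01g095630.3 and Solyc08g006320.5, which averaged 5181 ± 417 and 3078 ± 218 normalized counts in PA shoots, had log2 fold changes of -0.01 and 0.01, with standard errors of 0.11 and 0.10.

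How many members passed in shoots depended on single libraries. Leaving out PA shoot replicate 1 left 3 members and leaving out PA shoot replicate 2 left 4, all higher, while 9 passed without mock shoot replicate 1, of which 6 were higher and 3 lower. The share of all tested loci that passed moved with these counts, at 0.524%, 0.428% and 2.63%, against 1.58% with every library. With all 12 libraries in 1 fit 3 members passed, and 1.28% of all tested loci. Solyc08g067360.3 and Solyc09g015770.3 passed under each of the 16 other settings tried (adjusted p of at most 0.0131 and 0.0298). Solyc02g032950.3 lost its call without PA shoot replicates 1, 2 or 3 or mock shoot replicates 2 or 3 (limma adjusted p = 0.0509 to 0.151), and Solyc04g051690.4 lost it without any of the 3 PA shoot replicates (0.0548 to 0.107). The call of Solyc04g072070.4 was lost without PA shoot replicates 1 or 3 (limma adjusted p = 0.0699 and 0.0644), and that of Solyc10g009550.3 without PA shoot replicates 1 or 2 or mock shoot replicate 2 (0.0849, 0.0949 and 0.0581). With all 12 libraries in 1 fit the limma adjusted p was 0.403 for Solyc04g072070.4, 0.105 for Solyc03g095770.3, 0.0687 for Solyc04g051690.4 and 0.0572 for Solyc02g032950.3.

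The second comparison measured the same members in roots, after the spray on leaves. Of the 29 members tested, 5 fell (17.2%) and 0 rose, where 1.11% of all 14645 tested loci fell and 0.478% rose. With limma at an unadjusted p below 0.05 there were 14 lower members and still 0 higher, where 5.85% and 6.8% of all tested loci were lower and higher, and edgeR and DESeq2 on whole reads called 0 higher members as well. The estimate was negative for 26 of the 29, against 43.7% of all tested loci. The median log2 fold change was -0.44 over the members and 0.03 over all tested loci. The groups did not overlap at 11 members that were lower in PA roots and at 1 that was higher, against 7.26% and 10.2% of all tested loci. The 32 members together took 0.111, 0.113 and 0.171% of reads in PA roots, against 0.195, 0.219 and 0.214% in mock roots, and here the summed share was lower in every PA root.

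Solyc08g008280.3 had the largest difference in roots. It had 86.2, 60.8 and 140 normalized counts in PA roots, against 217, 212 and 276 in mock roots. The groups were apart, with PA root replicate 3 nearest to mock. The log2 fold change was -1.36 ± 0.24 (SE, limma adjusted p = 0.0243).

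Solyc06g068460.3 had 340, 413 and 780 normalized counts in PA roots, against 1032, 1284 and 1277 in mock roots. Again PA root replicate 3 was the highest of the PA libraries and below all mock libraries, and the log2 fold change was -1.31 ± 0.24 (SE, limma adjusted p = 0.0255). Solyc08g082110.5 had 88.8, 88.5 and 151 in PA roots, against 194, 230 and 234 in mock roots. Replicates 1 and 2 were nearly equal and replicate 3 lay between them and mock, with a log2 fold change of -1.04 ± 0.19 (SE, limma adjusted p = 0.0271).

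Solyc10g009550.3, the locus that also fell in shoots, had 26.5, 35.0 and 44.2 normalized counts in PA roots, against 66.5, 71.9 and 67.1 in mock roots. The mock libraries were close together and the groups were apart. The log2 fold change was -0.97 ± 0.20 (SE, limma adjusted p = 0.0388). Solyc09g014990.4 had 76.9, 71.0 and 110 in PA roots, against 140, 182 and 160 in mock roots. Its groups were apart too, with a log2 fold change of -0.91 ± 0.17 (SE, limma adjusted p = 0.0304).

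PA root replicate 3 was again the highest PA library at 3 members with differences of similar size that did not pass. Solyc03g116890.3 had 263, 187 and 506 normalized counts in PA roots, against 545, 747 and 915 in mock roots, a log2 fold change of -1.30 ± 0.29 (SE, limma adjusted p = 0.0519). For Solyc06g066370.5 the values were 333, 395 and 671 in PA roots, against 740, 867 and 905 in mock roots, a log2 fold change of -0.90 ± 0.20 (SE, limma adjusted p = 0.0516). Solyc01g095630.3 had 581, 650 and 1481 in PA roots, against 1479, 1830 and 1790 in mock roots, a log2 fold change of -1.04 ± 0.27 (SE, limma adjusted p = 0.0861). PA root replicate 3 was the PA library nearest to mock in all 3, and in Solyc01g095630.3 it lay within the mock range.

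**Figure D2:**
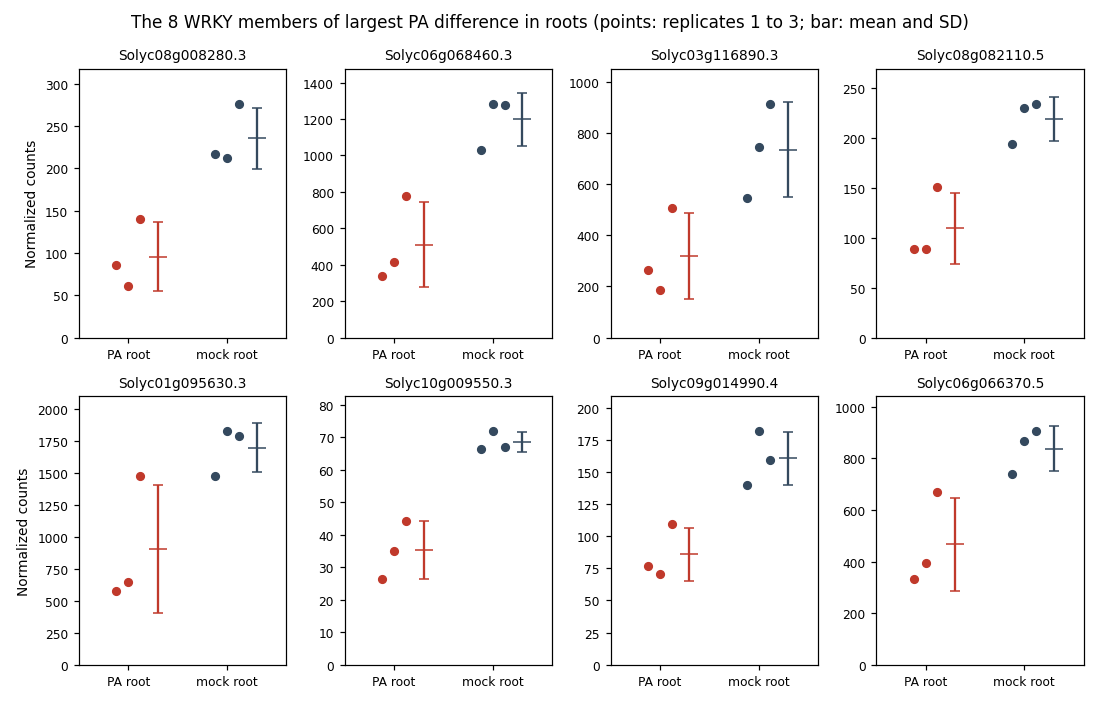
Normalized counts of the 8 WRKY members with the largest absolute log2 fold change in roots. Points are replicates 1 to 3 of PA roots and mock roots and the bar gives the mean and SD; replicate 3 is the highest PA root in every panel, and only Solyc01g095630.3, at 1481 in that library against 1479 in mock root replicate 1, overlaps with mock.

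Of the members that rose in shoots, 4 could be tested in roots, and their root estimates were negative and did not pass. Solyc09g015770.3 had 237, 273 and 494 normalized counts in PA roots, against 406, 578 and 545 in mock roots, with a log2 fold change of -0.67 (limma adjusted p = 0.213). Solyc02g032950.3 had 25.6, 31.3 and 28.2 in PA roots, against 36.8, 49.1 and 39.2 in mock roots, with -0.53 (limma adjusted p = 0.262). The groups of Solyc02g032950.3 were apart and those of Solyc09g015770.3 overlapped. Solyc04g072070.4 had 13.7, 6.45 and 29.7 in PA roots, against 18.4, 30.4 and 25.3 in mock roots, with -0.75 (limma adjusted p = 0.537), and Solyc03g095770.3 had a log2 fold change of -0.25 (limma adjusted p = 0.741). In Solyc02g080890.3, which did not pass in either tissue, values were 91.4, 104 and 107 in PA roots, against 134, 148 and 182 in mock roots, with -0.60 (limma adjusted p = 0.0609).

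Some members had similar means in PA and mock roots. Solyc05g012770.3 averaged 534 ± 8.22 normalized counts in PA roots and 534 ± 50.5 in mock roots (SD, n = 3 each), a log2 fold change of 0.00 ± 0.09 (SE). The values for Solyc07g051840.5 were 47.9 ± 5.59 in PA roots and 48.4 ± 3.16 in mock roots, and for Solyc02g088340.4 they were 73.1 ± 18.0 and 75.0 ± 13.3. Their log2 fold changes were -0.02 ± 0.17 and -0.05 ± 0.20 (SE), so modest changes either way remain possible. Solyc02g021680.3, detected almost only in roots, was the member whose PA roots were all above mock, at 62.3, 59.0 and 56.3 against 56.0, 44.0 and 51.4, with a log2 fold change of 0.23 (limma adjusted p = 0.622).

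The size of the root difference varied between PA libraries. Relative to the mock root mean, the median member was at -0.67 on the log2 scale in PA root replicate 1, -0.55 in replicate 2 and -0.20 in replicate 3, while the median over all tested loci was 0.03 in each. Of the 29 members, 22, 20 and 14 lay below the whole mock range in PA root replicates 1, 2 and 3, where 23.6, 26.5 and 24.4% of all tested loci did. In shoots the 3 PA libraries were more alike, with 11, 14 and 13 of 28 members above the mock range and 9, 9 and 8 below it. The corresponding shares of all loci in shoots were 22.7 to 25.7% above and 27.7 to 31.8% below.

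All 5 root calls rested on several libraries. The number of members that passed was 0 without any of 4 libraries, namely PA root replicates 1 and 2 and mock root replicates 2 and 3, when the limma adjusted p of the 5 was 0.0649 to 0.173. Over all loci the number called was then also low, at 79, 18, 14 and 15. Without PA root replicate 3 it was 12 members, all lower, including the same 5, and 517 of all tested loci passed (3.53%), against 232 (1.58%) with every library. Without mock root replicate 1 it was 6 members and 1.79% of all tested loci, and Solyc10g009550.3 no longer passed (limma adjusted p = 0.0676).

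**Figure D3:**
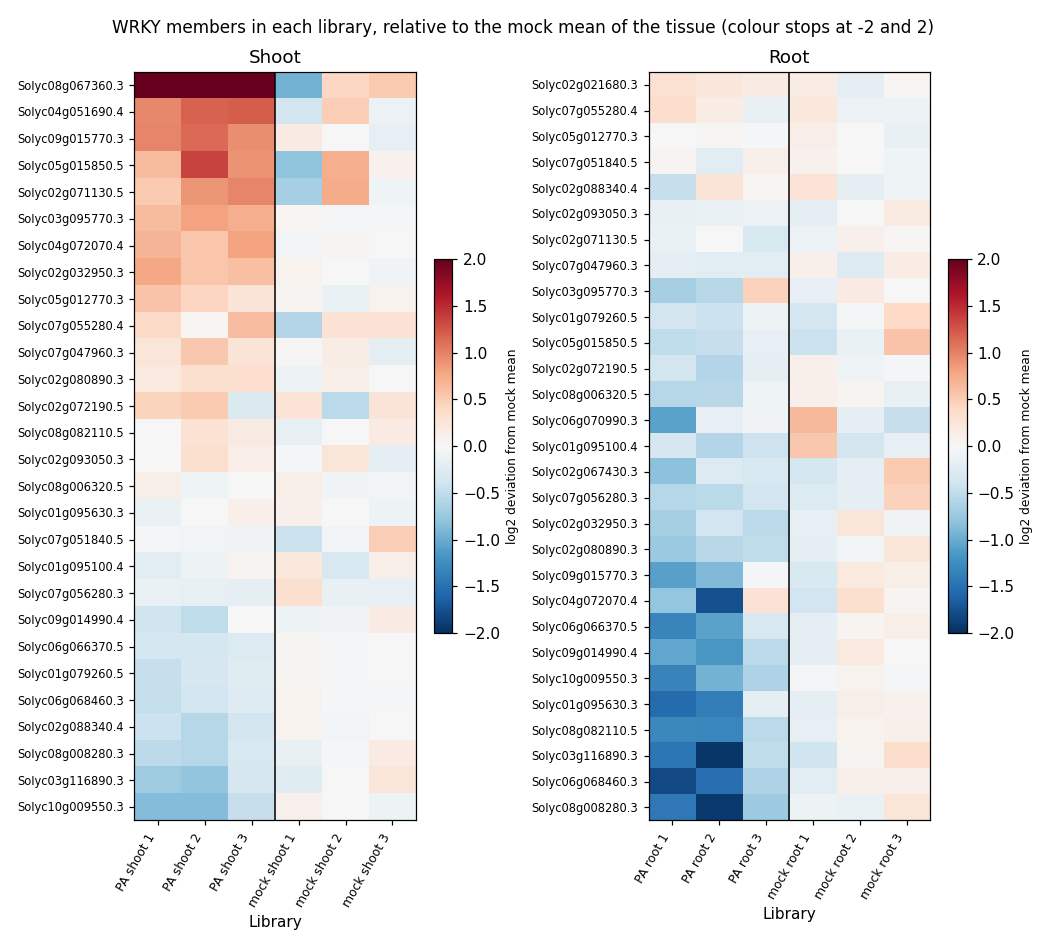
Log2 deviation of each tested WRKY member (rows) from the mock mean of its tissue in each library (columns), for shoots on the left and roots on the right, with PA libraries left of the black line and colours stopping at -2 and 2. The PA shoot columns hold both raised and lowered members, while the PA root columns are mostly lowered, more so in replicates 1 and 2, with medians of -0.67 and -0.55, than in replicate 3, at -0.20.

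Loci typical of the other organ were summed beside these results. Root markers, 95 loci at least 64-fold higher in mock root than in mock shoot with a mean of at least 500 there, took 0.0154 to 0.0220% of reads in PA shoots and 0.0123 to 0.0151% in mock shoots. Of these 95, 2 had no read in any PA shoot and 5 in any mock shoot. Shoot markers, 210 loci chosen in the converse way, took 0.11, 0.202 and 0.174% in PA roots and 0.106 to 0.138% in mock roots, and 1 of them had no read in PA roots and 6 in mock roots. Their part in the WRKY differences was not tested. Both lists were picked by the values of the mock libraries, a choice that favours low other-organ shares and high own-organ shares in mock. Differences between PA and mock in these shares and in the loci without reads are therefore not a test. In their own tissue, shoot markers took 18.8 to 18.9% of reads in PA shoots and 20.1 to 21.5% in mock shoots, and root markers 5.00 to 5.26% in PA roots and 4.62 to 5.24% in mock roots.

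Whether the PA effect on a member differed between root and shoot was tested as an interaction over all 12 libraries. Of 26 members with a mean of at least 10 in each tissue, 2 passed (7.69%), both with a root effect below the shoot effect, where 0.284% of all 13010 tested loci passed in that direction and 0.0922% in the other. For Solyc09g015770.3 the log2 fold change in roots minus that in shoots was -1.68 ± 0.29 (SE, limma adjusted p = 0.0231). For Solyc02g032950.3 the difference was -1.17 ± 0.21 (SE, limma adjusted p = 0.0246). The separate fits gave log2 fold changes in roots and shoots of -0.67 and 1.01 for Solyc09g015770.3, and of -0.53 and 0.64 for Solyc02g032950.3. With limma, 0 members passed with a higher effect in root than in shoot, and edgeR and DESeq2 called 0 as well. At an unadjusted limma p below 0.05, 0 of 26 had a higher and 16 a lower effect in root, where 6.5% and 5.63% of all tested loci did.

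Solyc08g082110.5 missed the threshold in the interaction, with -1.19 ± 0.25 (SE, limma adjusted p = 0.054). It fell in roots and had 292, 360 and 334 normalized counts in PA shoots, against 261, 297 and 328 in mock shoots, so that its shoot groups overlapped. Solyc10g009550.3, which fell in both tissues, had a difference of -0.24 ± 0.24 (SE, limma adjusted p = 0.744). The number that passed the interaction test was 0 without PA shoot replicate 1, PA shoot replicate 2 or mock root replicate 2. It was 1 without PA shoot replicate 3, mock shoot replicate 2 or PA root replicate 2. When PA root replicate 3 was left out it was 9, all with a lower effect in root. Leaving out that library also raised the share of all tested loci that passed in the root test, to 3.53% from 1.58%. Shares of all loci are not given for these interaction counts, so the counts are no result about the members alone.

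Set side by side, 12 of the 26 members were estimated higher in PA shoots and lower in PA roots, against 18.9% of all loci tested in both tissues. Another 12 were lower in both, against 24.1%, 2 were higher in both, against 27.9%, and 0 were lower in shoots and higher in roots, against 29.0%. The 2 higher in both were Solyc05g012770.3 and Solyc07g055280.4, with root log2 fold changes of 0.00 and 0.11. Across the 26 members the log2 fold changes of the tissues had a Pearson correlation of 0.44 and a Spearman correlation of 0.42, as a description, since all points share the same 12 libraries. Over all loci tested in both tissues both correlations were 0.07. The 3 members with the lowest root estimates, Solyc08g008280.3, Solyc06g068460.3 and Solyc03g116890.3, also had negative estimates in shoots, between -0.61 and -0.38.

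**Figure D4:**
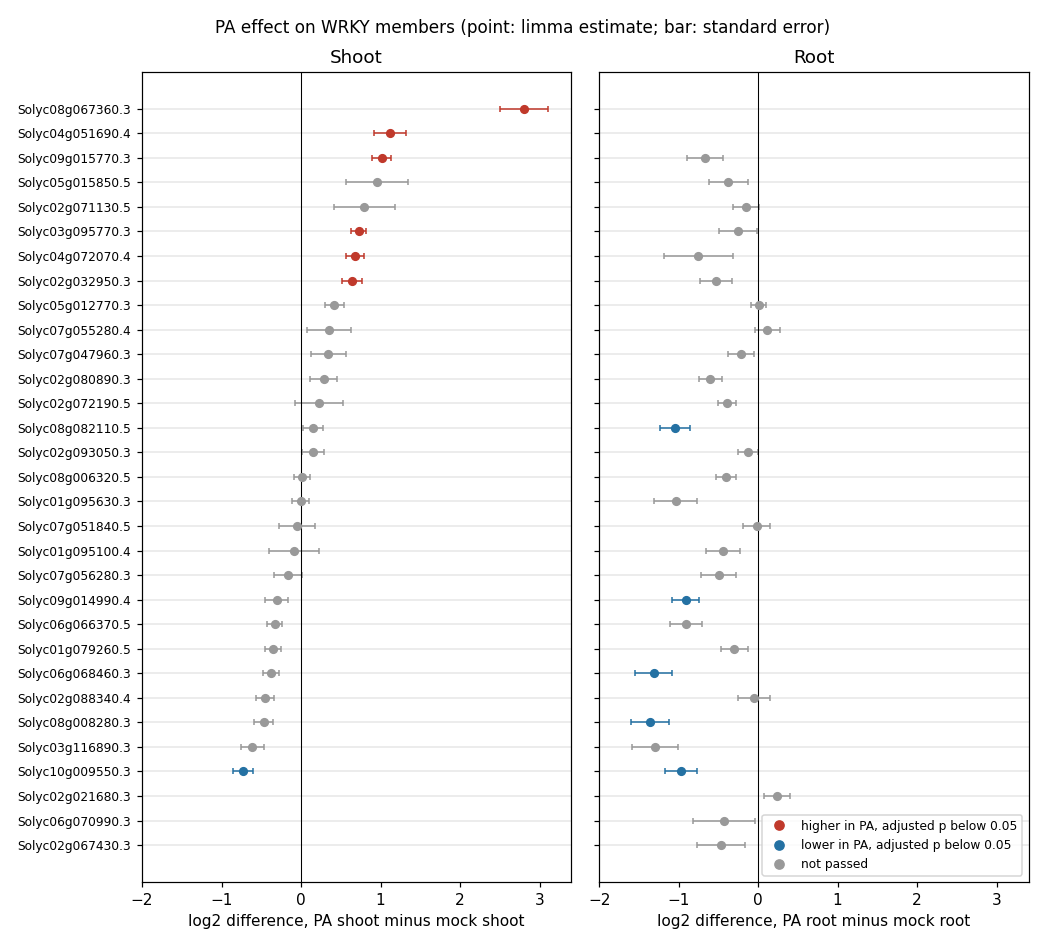
Log2 fold change of each WRKY member, PA shoot minus mock shoot on the left and PA root minus mock root on the right, with its standard error as a bar, ordered by the shoot estimate. Red points rose and blue points fell at a limma adjusted p below 0.05, grey points did not pass, and a missing point was below a mean of 10 in that tissue; 6 are red and 1 blue in shoots and 5 are blue in roots, with 26 of 29 root points left of 0.

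The last comparison set mock roots against mock shoots and gave the tissue preference of each member without PA. It shares its libraries with the comparisons above. Of 30 members tested, 10 were higher in roots and 18 were higher in shoots, shares of 33.3% and 60%, where 33.6% of all 15317 tested loci were higher in roots and 32.5% higher in shoots. For 4 of the 30, Solyc02g021680.3, Solyc02g067430.3, Solyc04g051690.4 and Solyc08g067360.3, the mean was under 10 in the lower tissue, so they were tested through the tissue in which they were high. The median log2 difference was -0.79 over the members and 0.02 over all tested loci. Quantile scaling moved the median of all loci to 0.15, and 10 members were then higher in roots and 16 in shoots. The shares of all loci under that scaling are not given, so these counts are no result about the members alone.

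Among the members tested, the largest log2 differences toward roots, with a pseudocount of 1, were at 3 loci of chromosome 2. Solyc02g021680.3 had 56.0, 44.0 and 51.4 normalized counts in mock roots, against 0, 0.92 and 1.56 in mock shoots, which rest on 2 reads in all (limma adjusted p = 2.71e-06). The ratio of mock roots to mock shoots from the summed reads was 65.5, with an exact 95% interval of 17.9 to 545 that covers counting error only. Its log2 difference of 4.91 depends on the pseudocount and was 3.25 to 6.03 over the settings tried. Solyc02g067430.3 had 15.8, 17.8 and 29.6 in mock roots and 0 reads in every shoot library. With 0 reads, up to 3 per library remain possible, which is 2.76 to 4.69 normalized counts in mock shoots, and against the mean of these limits the locus was at least 5.80-fold higher in mock roots. Solyc02g072190.5 had 414, 364 and 376 in mock roots, against 37.8, 21.2 and 37.5 in mock shoots, a log2 difference of 3.58 ± 0.22 (SE, limma adjusted p = 4.26e-07).

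Solyc01g095100.4, Solyc02g071130.5 and Solyc05g015850.5 followed, with log2 differences of 2.15, 1.98 and 1.73. Solyc06g070990.3 was below the filter for this test. It had 21.9, 11.8 and 9.58 normalized counts in mock roots and 0 reads in the mock shoots, at least 3.98-fold higher in roots with the same limit.

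At the other end Solyc04g051690.4 had 3.50, 5.92 and 5.23 normalized counts in mock roots, against 56.1, 103 and 67.2 in mock shoots, a log2 difference of -3.68 ± 0.31 (SE, limma adjusted p = 4.51e-06). It rests on few mock root reads and ran from -3.96 to -2.99 over the settings tried. The differences were -2.91 at Solyc04g072070.4, -2.91 at Solyc03g095770.3, -2.85 at Solyc08g067360.3, -2.70 at Solyc09g015770.3 and -2.65 at Solyc10g009550.3. These 6 had the lowest differences of all members tested. The groups were apart in each of them. The difference of Solyc08g067360.3, which also had few mock root reads, ran from -3.32 to -2.30 over the settings tried. Mock shoots enter this comparison and that of PA shoots, where the same loci had log2 fold changes of 1.12, 0.68, 0.72, 2.80, 1.01 and -0.73, in the order given here.

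Solyc08g006320.5 and Solyc07g051840.5 did not pass between tissues. Solyc08g006320.5 averaged 2905 ± 268 normalized counts in mock roots and 3052 ± 229 in mock shoots (SD, n = 3 each), a log2 difference of -0.07 ± 0.11 (SE, limma adjusted p = 0.562). The groups overlapped, as did those of Solyc07g051840.5, at 48.4 ± 3.16 in mock roots and 64.4 ± 21.2 in mock shoots (limma adjusted p = 0.223).

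**Figure D5:**
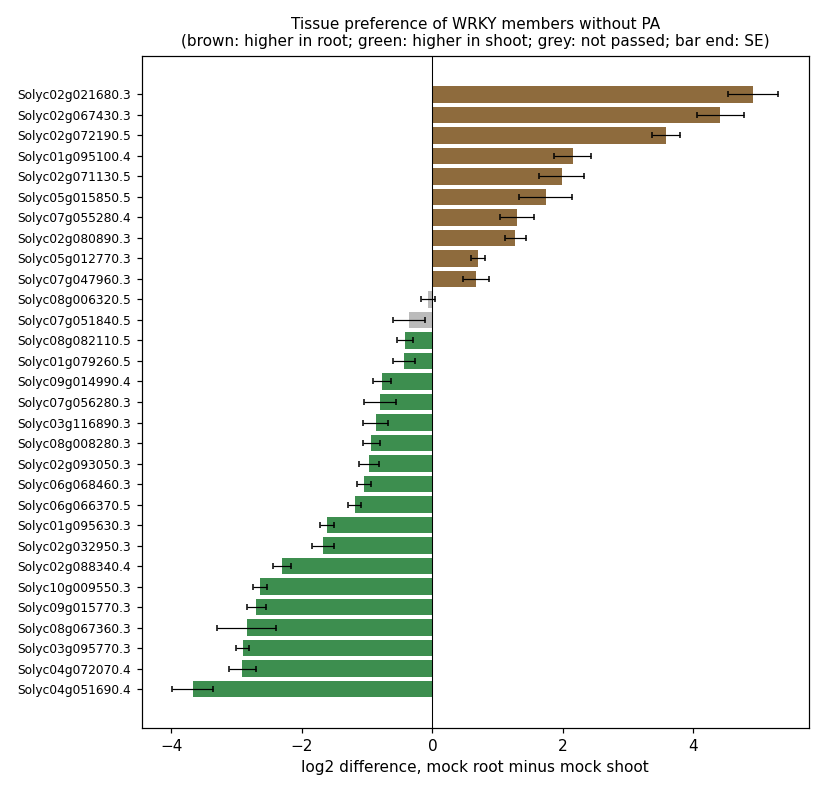
Log2 difference of each WRKY member, mock root minus mock shoot, as bars with the standard error. The 10 brown bars are higher in roots and the 18 green bars higher in shoots at a limma adjusted p below 0.05, and the 2 grey bars did not pass. Values run from -3.68 at Solyc04g051690.4 to 4.91 at Solyc02g021680.3, although the bars of Solyc02g021680.3 and Solyc02g067430.3, with 2 and 0 reads in mock shoots, depend on the added pseudocount of 1. The bars of Solyc04g051690.4 and Solyc08g067360.3 rest on few reads in mock roots.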

How the data were processed

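Messenger RNA of pooled shoots and roots was sequenced from the 3′ end with Lexogen's QuantSeq, per the labels' protocols. Tools in the submitters' processing notes are FastQC 0.11.8, Trimmomatic 0.38, STAR 2.6.1d and DESeq2. No source used here gives the build, the annotation or the counter, or tells how ambiguous reads were assigned, so values of near-identical family members are uncertain. The authors deposited a normalized signal per locus, called normalized counts. Divided by the value of 1 read, 100% of the entries of each library came out whole (tolerance 0.01), so whole reads were recovered, with size factors of 0.640 to 1.31. The 12 columns were matched to samples by the codes in their titles, and 0 columns were left unused.

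The main test was the two-sided limma-trend test (limma 3.58.1, R 4.3.3) of log2(value + 1), fitted on the whole table and adjusted over it. Alternatives were pseudocounts of 0.5 and 5, a filter of 50 or none, quantile scaling, edgeR 4.0.16 and DESeq2 1.42.0 on whole reads, a replicate block, sample quality weights, all 12 libraries in 1 fit, and leaving out each library. On those reads edgeR called 237 loci in shoots and 226 in roots. The tests were tried on simulated counts. Figures were drawn with matplotlib 3.10.9. Members named are those below 0.05 in a PA comparison, then those of largest absolute fold change up to 12 per tissue, and the 6 of largest difference each way between mock tissues. A few others named for similar means or overlapping groups were chosen after their values were seen, as was the choice to plot 8 in roots. The members and lists were chosen with earlier results of these data known. Of the reference table's entries, of assembly SLM_r2.1, 0 carried an identifier of the deposited table, so no names, coordinates or sequences are given. Counting limits cover counting error only. Deviations of same-numbered samples correlated at -0.0706 to 0.109, and several were under 0.1. The main test took replicate numbers as names only, and whether they mark a shared origin was not tested.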

Additional observations from a re-analysis of the deposited data

Results flagged for a closer look

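At Solyc09g015770.3 and Solyc02g032950.3 the PA effect differed between tissues by a test of the difference itself, with log2 fold changes in root minus those in shoot of -1.68 and -1.17 (limma adjusted p = 0.0231 and 0.0246). Both were higher in all 3 PA shoots than in any mock shoot. In roots all PA libraries of Solyc02g032950.3 were below mock, while those of Solyc09g015770.3 overlapped with mock through replicate 3. The adjusted p of Solyc09g015770.3 was above 0.05 without PA shoot replicates 1 or 2, PA root replicate 2 or mock root replicate 2 (0.0646, 0.0886, 0.0664 and 0.0759). That of Solyc02g032950.3 did so without PA shoot replicates 1, 2 or 3, mock shoot replicate 2 or mock root replicate 2 (0.056 to 0.084).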

How the results depend on the processing

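The log2 differences of the members chosen by the rule for named loci kept their sign under each setting tried; other members mentioned in the text were not recomputed. The number of members that passed in shoots, 7, was 3 with all 12 libraries in 1 fit and 10 under sample quality weights. It was 3 to 9 when 1 library was left out. In roots it was 5, with 9 under sample quality weights and 0 to 12 when 1 library was left out. For the difference between tissues in PA effect it was 2, with 5 by DESeq2 and 0 to 9 when 1 library was left out. Between mock tissues it was 28, with 23 to 28 when 1 library was left out. The share of all tested loci that passed moved too, from 1.58% in each tissue by the main test. In shoots it was 1.28% with all 12 libraries in 1 fit, 2.55% under sample quality weights and 0.428 to 2.63% with 1 library left out. In roots it was 2.74% under sample quality weights and 0.0956 to 3.53% with 1 library left out. Such shares are not given for these interaction and mock tissue counts. With the replicate number as a block, members that passed numbered 9 in shoots, 10 in roots, 4 in the interaction and 28 between mock tissues, and the calls without the block were all among them. The share of all tested loci that passed was then 2.59%, 3.01%, 0.846% and 66.1%, against 1.58%, 1.58%, 0.377% and 66.1% without the block. Deviations of same-numbered samples correlated only weakly, at -0.0706 to 0.109, and no pairing is named in the labels. Whether same-numbered samples share an origin was not tested, so the block is given as a setting only. With 1 library left out, 13 of 72 values of named members lost their call in shoots and 21 of 72 in roots, and 3 and 6 gained one. Under the other settings 4 of 116 lost it in shoots and 0 of 118 in roots, and 7 and 19 gained one. These totals include named members without a call in the main test, which had none to lose. Of the 12 named members in each tissue, only 7 in shoots and 5 in roots had a call. Each of the 5 root calls was lost in 4 or 5 of the 6 fits with 1 library left out. DESeq2 gave no adjusted p for 6 of the 28 shoot members, which stay untested there. The cause of these shifts between settings was not tested, and a fit with 1 library left out also has fewer libraries. Members with few reads, such as those near 10 to 30 normalized counts, had standard errors of up to 0.49 on the log2 scale.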

Other observations

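In roots the residual spread within groups was larger at WRKY members than over all tested loci, and in shoots it was not. This spread pools the PA and mock groups of a tissue. The median residual SD on the log2 scale was 0.30 for members and 0.18 for all tested loci in roots, and 0.16 and 0.20 in shoots. In mock roots alone the median absolute deviation of members from their mock mean was 0.19, 0.11 and 0.11 in replicates 1, 2 and 3, against 0.11, 0.10 and 0.11 over all loci. Within mock roots the members thus stood clearly above all loci only in replicate 1. Mock root replicate 1 had the lowest mock value at Solyc06g068460.3, Solyc03g116890.3, Solyc06g066370.5, Solyc08g082110.5, Solyc01g095630.3, Solyc09g014990.4 and Solyc09g015770.3. The same held at Solyc01g079260.5, Solyc02g032950.3, Solyc02g067430.3, Solyc02g071130.5, Solyc02g080890.3, Solyc02g093050.3, Solyc03g095770.3, Solyc04g072070.4, Solyc05g015850.5, Solyc07g056280.3 and Solyc10g009550.3. Mock root replicate 1 had the highest mock value at Solyc01g095100.4, Solyc02g021680.3, Solyc02g072190.5, Solyc02g088340.4, Solyc05g012770.3, Solyc06g070990.3, Solyc07g051840.5, Solyc07g055280.4 and Solyc08g006320.5. It lay between the others at Solyc07g047960.3 and Solyc08g008280.3. How often either order occurred over all loci was not counted. These values carry no test, and loci of 1 family are not independent.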
